A study of Mus musculus with 18 samples.

Results

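The 9 cell junction genes described here in synovial macrophages of the mouse are Tjp1, F11r, Cldn5, Jup, Ctnna1, Ctnnb1, Cdh1, Fat4 and Vcl. They were chosen by symbol, as tight and adherens junction genes proposed for the barrier that CX3CR1+ lining macrophages form, and they are 9 of the 24421 gene symbols in the count files, each present as 1 row. RNA was sequenced in bulk from knee synovium of C57BL/6 wild-type mice that were 8 to 20 weeks old, and both sexes were used in the study. Macrophages were sorted into LYVE1+CX3CR1+, MHCII+CD11c- and MHCII+CD11c+ subsets. Mice were either untreated controls or were culled 8 h after an intravenous injection of immune complexes (IC), made of ovalbumin and rabbit anti-ovalbumin antibody. Each of the 6 groups had 3 libraries, 18 in all. Untreated libraries are pools of several animals. The labels do not tie libraries of different subsets to the same animals, and p-values measure only the spread between these libraries.

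Macrophages that carry CX3CR1 form a dense layer at the surface of the synovium and have been described as an epithelium-like lining held together by junctions. Tight junctions seal neighbouring cells through claudins and JAM receptors, which are anchored by ZO scaffold proteins. Adherens junctions hold cells together through cadherins, whose tails bind beta-catenin or plakoglobin, and alpha-catenin and vinculin pass the pull on to actin. Vinculin also serves integrin adhesions and beta-catenin also serves Wnt signalling, so neither transcript is particular to cell-cell junctions.

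The depth ran from 245903 to 2172358 counts per library (median 1526180). The 3 shallowest libraries were MHCII+CD11c- IC 1 (381217 counts), MHCII+CD11c- IC 2 (245903) and MHCII+CD11c+ IC 1 (671244), all at under 50% of the median. Some of the results that rest on them, but not all, are also given without them. Levels are given in CPM, counts relative to library size after scaling by TMM, a normalization for library composition. Of the sorting markers, Lyve1 was at 2171 to 2563 CPM in the LYVE1+CX3CR1+ control libraries against at most 882 in the other control libraries, and after IC at 3172 to 3555 CPM against 516 to 2290 in MHCII+CD11c- and 1001 to 1232 in MHCII+CD11c+ libraries. MHCII+CD11c- IC 3, at 2290 CPM, thus lay inside the range of the LYVE1+CX3CR1+ controls, and H2-Ab1 was at 2670 to 3088 CPM in the MHCII+CD11c- IC libraries against 4548 to 4745 CPM in their controls. The part of this overlap in the comparisons after IC was not tested. H2-Ab1 (a class II chain) was at 20.1 to 44.3 CPM in the 6 LYVE1+CX3CR1+ libraries against at least 2670 in the others, and Itgax (CD11c) was at 240 to 383 CPM in the MHCII+CD11c+ libraries against at most 70.6 elsewhere.

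RefSeq promoter sequences (GRCm38.p6, 250 bases before to 50 bases after a start) matched 7 of the 9 members, with none for Ctnna1 or Cdh1. Those of F11r (chr1:171437311-171437610, plus strand), Jup (chr11:100397741-100398040, minus strand) and Vcl (chr14:20929148-20929447, plus strand) are shown, because F11r was higher in LYVE1+CX3CR1+ macrophages than in either MHCII+ subset, while Jup and Vcl were lower there than in MHCII+CD11c+ macrophages after IC. Capitals mark matches, on either strand, to 5 motifs.
F11r: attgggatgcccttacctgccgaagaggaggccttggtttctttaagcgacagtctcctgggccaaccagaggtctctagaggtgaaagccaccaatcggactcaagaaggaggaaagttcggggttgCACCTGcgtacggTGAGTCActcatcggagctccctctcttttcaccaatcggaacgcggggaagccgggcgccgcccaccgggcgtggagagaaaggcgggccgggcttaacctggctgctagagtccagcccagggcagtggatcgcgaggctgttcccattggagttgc
Jup: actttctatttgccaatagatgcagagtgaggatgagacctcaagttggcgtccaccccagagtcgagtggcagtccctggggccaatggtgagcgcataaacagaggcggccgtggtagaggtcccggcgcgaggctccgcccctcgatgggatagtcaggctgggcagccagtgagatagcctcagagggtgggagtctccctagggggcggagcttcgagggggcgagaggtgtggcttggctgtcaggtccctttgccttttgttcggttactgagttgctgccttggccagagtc
Vcl: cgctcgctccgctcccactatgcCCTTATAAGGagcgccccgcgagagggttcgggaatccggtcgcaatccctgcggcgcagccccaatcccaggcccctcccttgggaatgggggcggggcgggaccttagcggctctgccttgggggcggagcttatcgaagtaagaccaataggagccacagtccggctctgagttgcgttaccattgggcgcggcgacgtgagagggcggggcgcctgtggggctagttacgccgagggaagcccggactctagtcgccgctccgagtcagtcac
The motifs were CACCTG (an E-box bound by repressors of the Snail and ZEB type), TGAGTCA (AP-1), GAGGAAGT (PU.1, a macrophage factor), CTTTGAT (TCF/LEF, the partners of beta-catenin) and the CArG box of serum response factor. The F11r window held the E-box, 122 bases before the start, and the AP-1 motif, 109 bases before it, with no overlap between them. The Vcl window held a CArG box 227 bases before the start, and the windows of Jup and of the other members with a sequence held none of the 5. Of all 32851 RefSeq promoter windows, 20.2% held the E-box, 5.20% the AP-1 motif, 3.20% the PU.1 motif, 3.73% the TCF/LEF motif and 1.63% a CArG box. A match is a run of letters and not a measured site.

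Of the 9 members, 5 (F11r, Jup, Ctnna1, Ctnnb1 and Vcl) had more than 3 counts in all 18 libraries. Tjp1 passed 3 counts in 13 libraries, Fat4 in 9, Cdh1 in 6 and Cldn5 in 2. In LYVE1+CX3CR1+ macrophages this left Tjp1 above 3 counts in each of the 6 libraries and Fat4 in all 6, whereas Cdh1 and Cldn5 were at 3 counts or fewer in every one. The filter on low counts kept 8 members, which were tested, and removed Cldn5. Cdh1 passed it mainly through MHCII+CD11c+ libraries and was at most at 1.88 CPM in LYVE1+CX3CR1+ libraries. Fat4 passed it mainly through LYVE1+CX3CR1+ libraries. Fewer cells of a type and less RNA per cell cannot be told apart in such bulk samples.

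**Figure D1:**
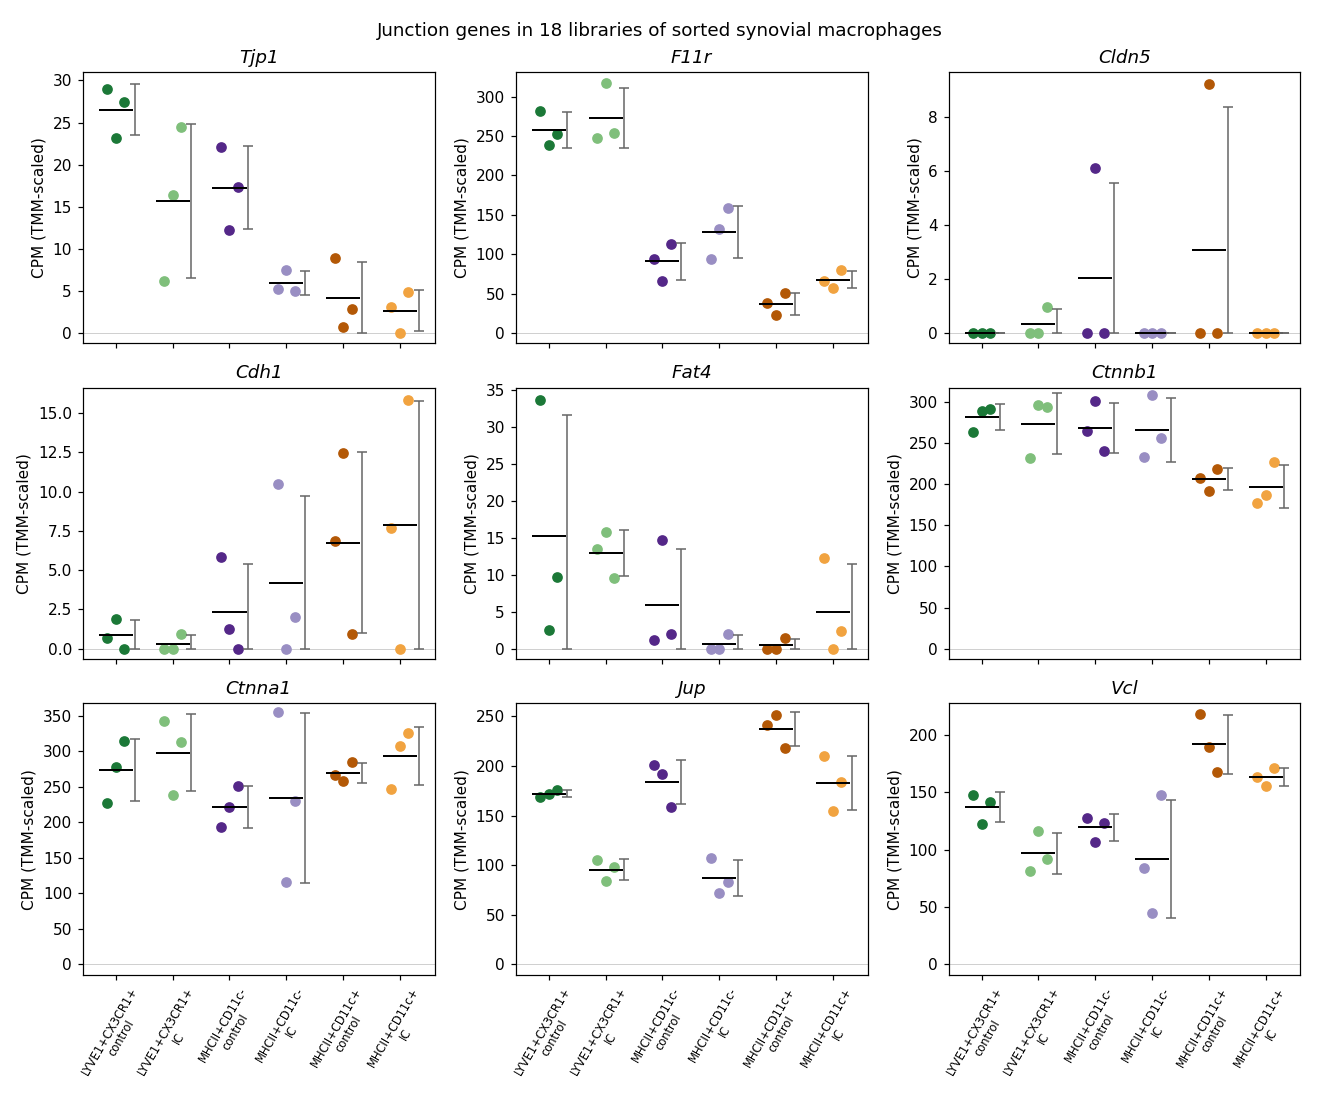
Level of each of the 9 junction genes (CPM after TMM scaling, linear axis per gene) in the 6 groups. Points are libraries, lines are group means and grey bars are the SD over 3 libraries, cut at 0. F11r and Tjp1 were highest in LYVE1+CX3CR1+ control or IC libraries, Jup and Vcl in MHCII+CD11c+ control libraries, and Cldn5 was at 0 in 15 of the 18 libraries.

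Per kb of exon, F11r stood first among the members in LYVE1+CX3CR1+ macrophages. Its level was 96.8 ± 8.46 CPM per kb (SD, n = 3) in controls, followed by Ctnnb1 at 54.2 ± 3.01, Ctnna1 at 42.6 ± 6.82, Jup at 26.7 ± 0.499 and Vcl at 16.7 ± 1.61. Tjp1 followed at 3.40 ± 0.384 CPM per kb, and Fat4, Cdh1 and Cldn5 were below 1. In MHCII+CD11c+ control libraries the order differed, with Ctnna1 at 42.0 ± 2.20 CPM per kb Ctnnb1, Jup and Vcl next, and F11r at 13.9 ± 5.24. The annotation that the authors counted with is not given in the sources used here, so exon lengths come from GENCODE M21 and the order is approximate.

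**Figure D2:**
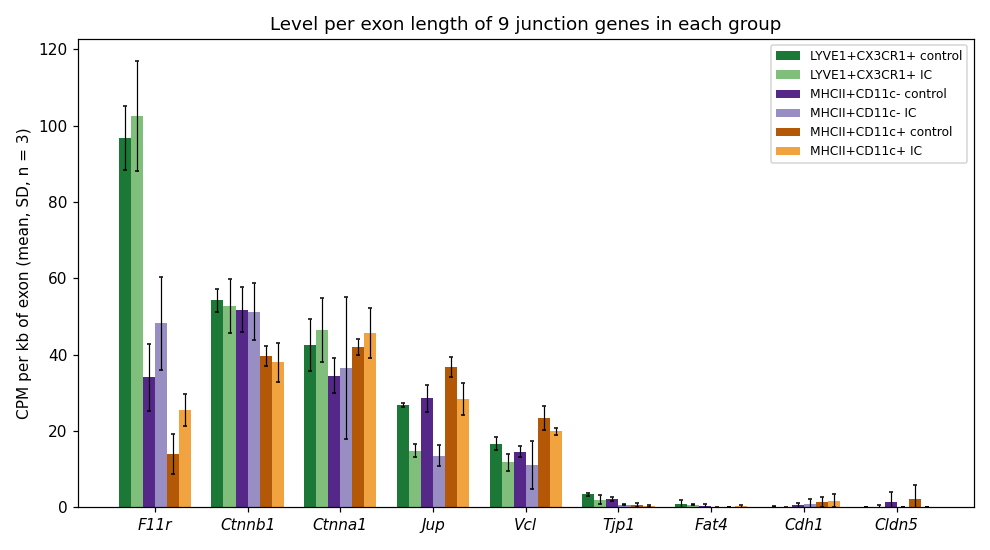
Mean CPM per kb of exon of the 9 junction genes in the 6 groups (bars start at 0, error bars are the SD over 3 libraries). F11r reached 96.8 and 103 CPM per kb in LYVE1+CX3CR1+ control and IC libraries, while Tjp1, Fat4, Cdh1 and Cldn5 stayed at or below 3.40 in every group.

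F11r (chromosome 1, 171437535 to 171464603, plus strand; positions are on GRCm38 with GENCODE M21, counted from 1) encodes JAM-A, an immunoglobulin-like tight junction receptor that is also carried by leukocytes and platelets. In control libraries 1, 2 and 3 it was at 282, 238 and 253 CPM in LYVE1+CX3CR1+ macrophages, at 94.2, 66.0 and 112 CPM in MHCII+CD11c- and at 38.4, 22.4 and 50.2 CPM in the MHCII+CD11c+ subset. The 3 subsets did not overlap. F11r was 2.82-fold higher in LYVE1+CX3CR1+ than in MHCII+CD11c- controls (log2 difference with a 95% interval of 1.01 to 1.98, adjusted p = 9.34e-05). Adjusted p-values are from edgeR's quasi-likelihood fit after Benjamini-Hochberg correction over 10550 genes, the threshold is 0.05, and errors of log2 differences are standard errors. It was 6.87-fold higher than in MHCII+CD11c+ controls (log2 2.78 ± 0.25, adjusted p = 3.51e-09), and MHCII+CD11c+ lay 2.43-fold below MHCII+CD11c- controls (log2 -1.28 ± 0.25, adjusted p = 0.00339). All 3 calls were kept in all 15 alternative analyses, which included leaving out each of the libraries compared in turn.

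After IC, F11r was at 248, 317 and 254 CPM in LYVE1+CX3CR1+ libraries, at 94.1, 132 and 159 CPM in MHCII+CD11c- libraries and at 66.3, 57.4 and 79.8 CPM in MHCII+CD11c+ libraries, again with no overlap between subsets. It was higher in LYVE1+CX3CR1+ than in MHCII+CD11c+ macrophages (log2 2.00 ± 0.24, adjusted p = 6.77e-07) and 2.08-fold higher than in MHCII+CD11c- macrophages (log2 1.06 ± 0.24, adjusted p = 0.00469). The latter was not past the threshold without the 3 shallow libraries, which leaves 1 MHCII+CD11c- IC library that is assumed to vary like the other groups (log2 0.81, adjusted p = 0.162). The step from MHCII+CD11c- down to MHCII+CD11c+ (log2 -0.94, adjusted p = 0.0444) kept its call in 1 of the 6 analyses that left out a library, with adjusted p up to 0.234 without MHCII+CD11c- IC 3. It was lost without MHCII+CD11c- IC 2 and without each MHCII+CD11c+ IC library, and without the shallow libraries (log2 -1.21, adjusted p = 0.0764).

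Tjp1 (chromosome 7, 65296165 to 65527781, minus strand) encodes ZO-1, the scaffold beneath tight junctions. Control libraries 1, 2 and 3 held 29.0, 23.2 and 27.5 CPM in LYVE1+CX3CR1+ macrophages, 22.1, 12.2 and 17.4 CPM in MHCII+CD11c- macrophages and 8.93, 0.657 and 2.89 CPM in MHCII+CD11c+ macrophages. The subsets did not overlap, and the raw counts behind these values were 37 to 51, 10 to 19 and 1 to 17. Tjp1 was 6.10-fold higher in LYVE1+CX3CR1+ than in MHCII+CD11c+ controls (log2 2.61 ± 0.63, adjusted p = 0.00295), a call kept in all 14 alternatives that gave a value, though the size of the difference depended on MHCII+CD11c+ control 1, without which it was 13.4-fold (log2 3.75). Its difference from MHCII+CD11c- controls was not past the threshold (log2 0.62, 95% interval -0.59 to 1.82, adjusted p = 0.598).

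After IC the Tjp1 levels were 6.20, 16.3 and 24.5 CPM in LYVE1+CX3CR1+ libraries, 5.23, 7.53 and 5.01 CPM in MHCII+CD11c- libraries and 3.09, 0 and 4.87 CPM in MHCII+CD11c+ libraries. LYVE1+CX3CR1+ IC 1 lay within the MHCII+CD11c- range, and the other LYVE1+CX3CR1+ libraries lay above both MHCII+ subsets. Tjp1 was 5.61-fold higher in LYVE1+CX3CR1+ than in MHCII+CD11c+ macrophages (log2 2.49 ± 0.73, adjusted p = 0.0150). This call was lost without MHCII+CD11c+ IC 2 (log2 1.91, adjusted p = 0.0813), the library with 0 counts, and without LYVE1+CX3CR1+ IC 3 (log2 2.01, adjusted p = 0.0911), while without MHCII+CD11c+ IC 3 the difference was 13.6-fold (log2 3.77).

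Cldn5 (chromosome 16, 18776847 to 18778262, plus strand) encodes claudin-5, the sealing claudin of endothelium. It had 5 counts in MHCII+CD11c- control 2, 14 counts in MHCII+CD11c+ control 2, 2 counts in LYVE1+CX3CR1+ IC 3 and 0 in the other 15 libraries. Over the 3 LYVE1+CX3CR1+ control libraries, 0 counts allow a level of up to 0.608 CPM (3 counts over the group, counting error only). The mean of 0.160 CPM over the 6 LYVE1+CX3CR1+ libraries and of 1.28 CPM over the 12 MHCII+ libraries gave a p of 0.583 in an exact two-sided permutation test with subsets permuted within treatment. With 15 libraries at 0, no arrangement with the lower mean in LYVE1+CX3CR1+ libraries could give a p below 0.361, so the test could not have shown a lower level there. Cdh5, which encodes the cadherin of endothelium, had 1 to 10 counts in LYVE1+CX3CR1+ control libraries, 5 and 6 counts in the MHCII+CD11c- and MHCII+CD11c+ control libraries that held Cldn5, and 24 in LYVE1+CX3CR1+ IC 3. The highest Cdh5 count, 37, was in MHCII+CD11c- control 1, which had 0 counts of Cldn5. The summed level of 20 endothelial marker genes was 130 to 182 CPM in LYVE1+CX3CR1+, 174 to 323 in MHCII+CD11c- and 149 to 296 in MHCII+CD11c+ controls. MHCII+CD11c+ control 2, the library with 14 counts of Cldn5, had 12 of the 20 genes above 3 counts, against 4 and 6 in the other MHCII+CD11c+ controls and 2 to 9 in all other libraries. Named after their values were seen, Cd34 had 20 counts there against 2 and 6 in the other MHCII+CD11c+ controls, and Emcn, Plvap, Esam and Ptprb had 5 to 7 counts against 0. Not all genes of the list were highest there. Flt1 had 79 counts against 391 and 107, Eng 101 against 120 and 126, and Vwf 16 against 15 and 33. The summed level was 193 CPM in that library and 296 CPM in MHCII+CD11c+ control 1, which had 0 counts of Cldn5. The part of endothelial RNA in Cldn5 was not tested.

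Cdh1 (chromosome 8, 106603351 to 106670246, plus strand) encodes E-cadherin, the main cadherin of epithelia and of some dendritic cells. LYVE1+CX3CR1+ control libraries 1, 2 and 3 had 1, 3 and 0 counts and LYVE1+CX3CR1+ IC libraries had 0, 0 and 2. MHCII+CD11c- libraries had 5, 1 and 0 counts in controls and 4, 0 and 2 after IC. MHCII+CD11c+ libraries had 13, 19 and 2 counts in controls and 5, 0 and 26 after IC. The summed counts were thus highest in MHCII+CD11c+ macrophages, but 1 library of that subset was at 0 after IC and the groups overlapped.

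After IC the summed Cdh1 counts were 31 in MHCII+CD11c+ and 2 in LYVE1+CX3CR1+ libraries, a ratio of 25.0 with a 95% counting interval of 6.37 to 216 that leaves out the spread between libraries. The fitted difference was past the threshold (log2 -4.22, adjusted p = 0.0330), but leaving out MHCII+CD11c+ IC 3 gave log2 -2.90 and an adjusted p of 0.305. The call was also lost without MHCII+CD11c+ IC 1, LYVE1+CX3CR1+ IC 1 or LYVE1+CX3CR1+ IC 2, with adjusted p of 0.0598, 0.127 and 0.137, and without the shallow libraries (0.0617). Without LYVE1+CX3CR1+ IC 3, the library with both counts of that subset, the fitted log2 was -6.39. In controls the 34 and 4 counts gave a ratio of 7.63 (2.72 to 29.6), and the fitted log2 of -2.87 had an adjusted p of 0.121.

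The sums of epithelial and of dendritic cell markers had their highest group means in MHCII+CD11c+ libraries, though not every gene of the lists did. None of 15 epithelial marker genes had more than 3 counts in any LYVE1+CX3CR1+ library, and their sum was at most 2.11 CPM there, against 5.26 to 13.7 CPM in MHCII+CD11c+ controls and 2.36 to 16.4 CPM in MHCII+CD11c+ IC libraries. Epcam had 11, 8 and 4 counts in MHCII+CD11c+ controls 1, 2 and 3 and 1, 1 and 7 after IC. Of the keratins of simple epithelia, Krt19 had 4, 0 and 9 counts in these controls and 1, 0 and 18 after IC, and Krt7 had 4 counts in control 1, while Krt8 and Krt18 had at most 2 counts in any of the 6 libraries. MHCII+CD11c+ IC 3, which had 26 of the 31 Cdh1 counts of that group, also had its highest epithelial sum, 16.4 CPM. MHCII+CD11c+ control 2 had the most Cdh1 counts of its group, 19, and the lowest epithelial sum, 5.26 CPM. The sum of 12 dendritic and Langerhans cell genes was 67.3 to 111 CPM in LYVE1+CX3CR1+, 186 to 240 in MHCII+CD11c- and 291 to 465 in MHCII+CD11c+ controls, where Flt3 had 42 to 147 counts against 0 in each LYVE1+CX3CR1+ control library. Irf8, of the same list, had 102 to 151 counts in LYVE1+CX3CR1+ and 94 to 195 in MHCII+CD11c+ controls. Cd207, its Langerhans cell gene, had at most 1 count in any library. Within the MHCII+CD11c+ subset the dendritic sum did not follow Cdh1. It was 291 CPM in control 2 (19 Cdh1 counts) and 465 CPM in control 3 (2 counts). After IC it was 352 CPM in IC 3 (26 counts) against 390 and 470 CPM in IC 1 and 2. The part of epithelial and dendritic cell RNA in Cdh1 was not tested.

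Fat4 (chromosome 3, 38886940 to 39011985, plus strand) encodes a giant atypical cadherin of planar cell polarity. LYVE1+CX3CR1+ control libraries 1, 2 and 3 had 50, 4 and 18 counts, or 33.7, 2.51 and 9.69 CPM. MHCII+CD11c- control libraries had 1, 12 and 2 counts and MHCII+CD11c+ control libraries had 0, 0 and 3. LYVE1+CX3CR1+ and MHCII+CD11c+ controls did not overlap, but MHCII+CD11c- control 2 lay inside the LYVE1+CX3CR1+ range. The 72 and 3 counts in LYVE1+CX3CR1+ and MHCII+CD11c+ controls gave a ratio of 26.7 (95% counting interval 8.79 to 133), and the fitted difference was past the threshold (adjusted p = 0.00511). The fitted log2 of 4.61 depended on single libraries. It was 3.33 without LYVE1+CX3CR1+ control 1 (adjusted p = 0.0769), and without MHCII+CD11c+ control 3 no count was left in that group.

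LYVE1+CX3CR1+ control 1 also held 892 counts of Prg4, which encodes the lubricin of lining fibroblasts, against 9 and 14 in the other LYVE1+CX3CR1+ control libraries. The sum of 20 fibroblast marker genes, Prg4 among them, ranged from 71.6 to 706 CPM over the LYVE1+CX3CR1+ control libraries. Of the 706 CPM, found in control 1, 601 CPM were Prg4 itself. After IC, Fat4 had 24, 30 and 20 counts in LYVE1+CX3CR1+ libraries, 0, 0 and 2 in MHCII+CD11c- libraries and 8, 0 and 4 in MHCII+CD11c+ libraries. At 13.5, 15.8 and 9.60 CPM, the LYVE1+CX3CR1+ IC libraries lay above all MHCII+CD11c- IC libraries, while MHCII+CD11c+ IC 1, a shallow library, reached 12.3 CPM. Prg4 had 17 to 89 counts in the LYVE1+CX3CR1+ IC libraries and 8 in MHCII+CD11c+ IC 1, and the part of fibroblast RNA in Fat4 was not tested. Neither difference after IC was past the threshold (log2 3.40, adjusted p = 0.131 against MHCII+CD11c- and log2 1.68, adjusted p = 0.282 against MHCII+CD11c+).

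Ctnnb1 (chromosome 9, 120929216 to 120960507, plus strand) encodes beta-catenin, which links cadherins to alpha-catenin and acts with TCF/LEF factors in Wnt signalling. Control levels were 263, 289 and 292 CPM in LYVE1+CX3CR1+, 265, 301 and 240 CPM in MHCII+CD11c- and 208, 192 and 218 CPM in MHCII+CD11c+ libraries. LYVE1+CX3CR1+ and MHCII+CD11c- controls overlapped, and both lay above MHCII+CD11c+ controls. The 1.37-fold difference of LYVE1+CX3CR1+ from MHCII+CD11c+ controls had an adjusted p of 0.0432 (log2 0.45 ± 0.16), and no call remained in any of the 6 analyses that left out 1 of these libraries, with adjusted p of up to 0.152 without MHCII+CD11c+ control 2.

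After IC, Ctnnb1 was at 231, 296 and 293 CPM in LYVE1+CX3CR1+, 233, 309 and 256 CPM in MHCII+CD11c- and 177, 187 and 227 CPM in MHCII+CD11c+ libraries. MHCII+CD11c+ libraries lay again below the other subsets. The difference of LYVE1+CX3CR1+ from MHCII+CD11c+ was log2 0.47 ± 0.16 (adjusted p = 0.0415). It was lost without MHCII+CD11c+ IC 1 (adjusted p = 0.153) or IC 2 (0.103), and without LYVE1+CX3CR1+ IC 2 (0.119) or IC 3 (0.140). It was also lost without the shallow libraries (0.0576) and with no filter on low counts (0.0670).

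Ctnna1 (chromosome 18, 35118859 to 35254779, plus strand) encodes alpha-catenin, the actin linker of the cadherin complex. Over 18 libraries it ranged from 117 to 356 CPM with a median of 262, and both extremes were shallow MHCII+CD11c- IC libraries. Group means ran from 222 CPM in MHCII+CD11c- controls to 298 CPM in LYVE1+CX3CR1+ IC libraries, and each group overlapped the next in that order. None of the 12 comparisons was past the threshold. Between LYVE1+CX3CR1+ and MHCII+CD11c+ controls the difference was log2 0.02 with a 95% interval of -0.44 to 0.48. Exons of Ctnna1, Ctnnb1 and Vcl overlap exons of Lrrtm2, Ulk4 and Ap3m1 on the opposite strand, and those of Fat4 overlap antisense transcripts. The strand setting of the counting is not given in the sources used here, so reads of such pairs may not have been separated.

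Jup (chromosome 11, 100368958 to 100397763, minus strand) encodes plakoglobin, or gamma-catenin, the relative of beta-catenin that joins adherens junctions and desmosomes. Control libraries 1, 2 and 3 held 169, 172 and 176 CPM in LYVE1+CX3CR1+ macrophages, 201, 192 and 158 CPM in MHCII+CD11c- macrophages and 242, 251 and 218 CPM in MHCII+CD11c+ macrophages. LYVE1+CX3CR1+ and MHCII+CD11c- controls overlapped and both lay below MHCII+CD11c+ controls. The LYVE1+CX3CR1+ level was 1.38-fold below that of MHCII+CD11c+ controls (log2 -0.46 ± 0.17, adjusted p = 0.0479), a call lost in each of the 6 analyses without 1 of those libraries (adjusted p up to 0.152 without MHCII+CD11c+ control 2).

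After IC, Jup was at 105, 83.8 and 98.0 CPM in LYVE1+CX3CR1+, at 107, 71.5 and 83.1 CPM in MHCII+CD11c- and at 210, 155 and 183 CPM in MHCII+CD11c+ libraries. All IC libraries of LYVE1+CX3CR1+ and MHCII+CD11c- macrophages lay below all of their controls and below all MHCII+CD11c+ IC libraries. Between subsets after IC, LYVE1+CX3CR1+ lay 1.90-fold below MHCII+CD11c+ macrophages (log2 -0.93 ± 0.17, adjusted p = 2.58e-04), a call kept in all 15 alternatives. MHCII+CD11c+ lay 2.07-fold above MHCII+CD11c- macrophages (log2 1.05 ± 0.19, adjusted p = 0.00200), a call kept in 14 of 15 alternatives and lost when only those 6 libraries were fitted (adjusted p = 0.0704).

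Vcl (chromosome 14, 20929398 to 21033676, plus strand) encodes vinculin, which ties alpha-catenin and talin to actin. Control levels were 148, 122 and 141 CPM in LYVE1+CX3CR1+, 128, 106 and 124 CPM in MHCII+CD11c- and 219, 189 and 167 CPM in MHCII+CD11c+ libraries. Only MHCII+CD11c+ stood apart, above both other subsets, and neither difference was past the threshold (log2 -0.48 for LYVE1+CX3CR1+ against MHCII+CD11c+, adjusted p = 0.134, and log2 0.68 for MHCII+CD11c+ against MHCII+CD11c-, adjusted p = 0.107). After IC the levels were 81.2, 117 and 92.2 CPM, 83.7, 45.2 and 147 CPM, and 164, 156 and 171 CPM in the same order.

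The Vcl levels of MHCII+CD11c+ IC libraries lay above all other IC libraries, and those of MHCII+CD11c- macrophages were wide, with the lowest in the shallow IC 2. LYVE1+CX3CR1+ lay 1.69-fold below MHCII+CD11c+ macrophages after IC (log2 -0.76 ± 0.23, adjusted p = 0.0185). The call was lost without LYVE1+CX3CR1+ IC 1 (adjusted p = 0.135) or IC 3 (0.0691) and without MHCII+CD11c+ IC 2 (0.0551) or IC 3 (0.0905).

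**Figure D3:**
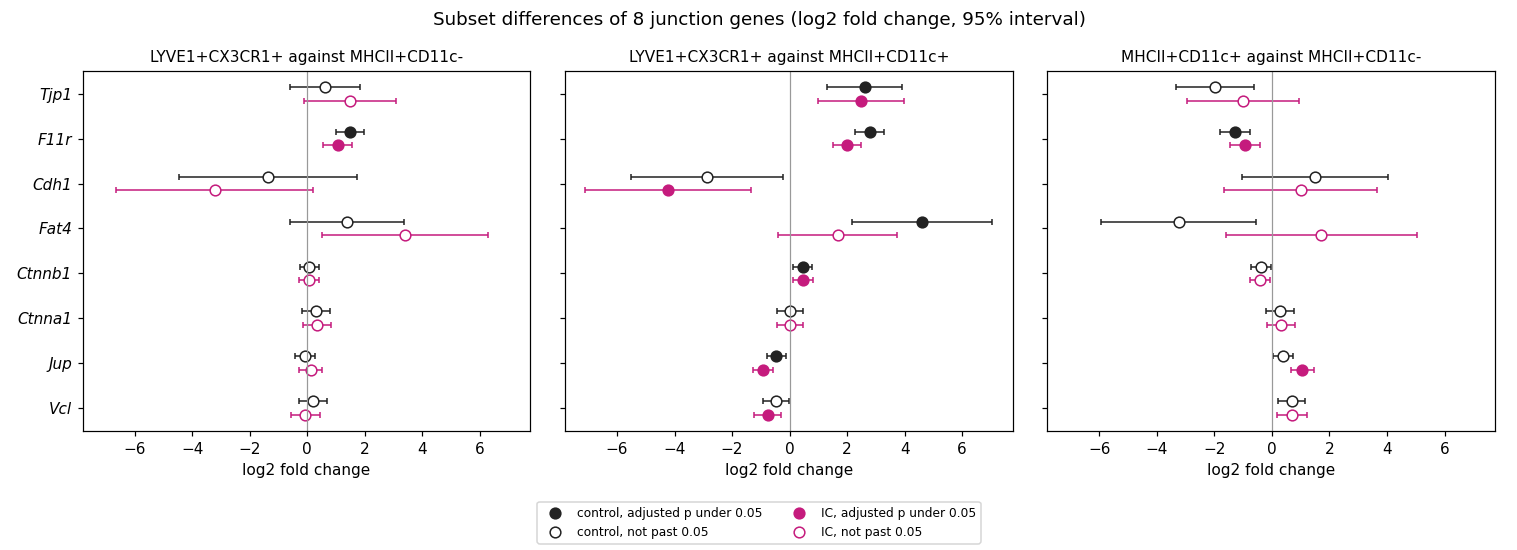
Log2 fold change (horizontal axis) of 8 junction genes between subsets, in control and IC libraries, with 95% intervals from edgeR's quasi-likelihood fit; filled points have an adjusted p under 0.05. F11r was past the threshold in all 6 comparisons, and Ctnna1 in none of them.

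Among control libraries, 1 of the 8 members tested was called between LYVE1+CX3CR1+ and MHCII+CD11c- macrophages (F11r), where 11.4% of 10550 genes were called. Against MHCII+CD11c+ macrophages 5 of 8 were called (Tjp1, F11r, Ctnnb1 and Fat4 higher, Jup lower), beside 21.8% of all genes, and between the MHCII+ subsets 1 of 8 (F11r), beside 3.49%. After IC the counts were 1 of 8 (F11r) beside 9.77%, 6 of 8 (Tjp1, F11r and Ctnnb1 higher, Jup, Vcl and Cdh1 lower) beside 19.7%, and 2 of 8 (F11r lower and Jup higher in MHCII+CD11c+) beside 2.84%. These comparisons share libraries, and called members lay on both sides. Fat4 in controls and Cdh1 after IC had passed the filter on low counts mainly through libraries of the subset where they were higher. Leaving out a library gave 2 or 3 calls of 8 between LYVE1+CX3CR1+ and MHCII+CD11c+ controls (2 without LYVE1+CX3CR1+ control 1) and 3 or 4 of 8 after IC (3 without LYVE1+CX3CR1+ IC 3 or MHCII+CD11c+ IC 2). The share of all genes called in these runs is not given, so the drop cannot be set against it.

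With IC, Jup was the only member called. It fell from 169 to 176 CPM in LYVE1+CX3CR1+ controls to 83.8 to 105 CPM after IC (log2 -0.85 ± 0.17, 1.80-fold, adjusted p = 0.0163), beside 0.464% of all genes called. The log2 change stayed between -0.91 and -0.76 when single libraries were left out, but the call was lost without any 1 of 5 of them: adjusted p was 0.0777, 0.0774 and 0.104 without LYVE1+CX3CR1+ control 1, 2 and 3, and 0.0750 and 0.188 without IC 1 and 2. In MHCII+CD11c- macrophages Jup fell 2.09-fold (log2 -1.07 ± 0.19, adjusted p = 0.00511), beside 1.06% of all genes, and this call was kept without each library in turn. It was lost when only those 6 libraries were fitted (log2 -1.06, adjusted p = 0.148).

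In MHCII+CD11c+ macrophages Jup was at 218 to 251 CPM in controls and 155 to 210 after IC, with no overlap (log2 -0.38, adjusted p = 0.454). None of the 8 members was called there by edgeR, beside 0.673% of all genes, and DESeq2 called none of the 8. By edgeR 2 of 8 (F11r and Jup) had an unadjusted p under 0.05, beside 1000 of all 10550 genes. F11r was at 37.0 ± 14.0 CPM in controls and 67.9 ± 11.3 CPM after IC (SD, n = 3) without overlap (log2 0.86, adjusted p = 0.142). Vcl was at 122 to 148 CPM in LYVE1+CX3CR1+ controls and 81.2 to 117 after IC without overlap (log2 -0.50, unadjusted p = 0.0355, not past the threshold after adjustment), and Tjp1 was at 12.2 to 22.1 CPM in MHCII+CD11c- controls and 5.01 to 7.53 after IC (log2 -1.61, adjusted p = 0.347).

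Ctnnb1, Ctnna1, Cdh1 and Fat4 were not past the threshold with IC in any subset. For Ctnnb1 the 95% interval of the log2 change was -0.37 to 0.28 in LYVE1+CX3CR1+ macrophages. No member's IC response differed between subsets past the threshold in edgeR's interaction test or in DESeq2. The background was 0% of genes for LYVE1+CX3CR1+ against MHCII+CD11c- macrophages (688 genes with an unadjusted p under 0.05, and 8 called by DESeq2), and 0.00948% (1 gene) for each of the other pairs of subsets. By unadjusted p under 0.05, 0, 1 (F11r) and 2 (Jup and Fat4) of 8 members differed in the order LYVE1+CX3CR1+ against MHCII+CD11c-, LYVE1+CX3CR1+ against MHCII+CD11c+, and MHCII+CD11c+ against MHCII+CD11c-. Over all 10550 genes 688, 474 and 642 did, in the same order. For Jup the difference in response between MHCII+CD11c+ and MHCII+CD11c- macrophages was log2 0.68 with a 95% interval of 0.15 to 1.21 (adjusted p = 0.773).

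**Figure D4:**
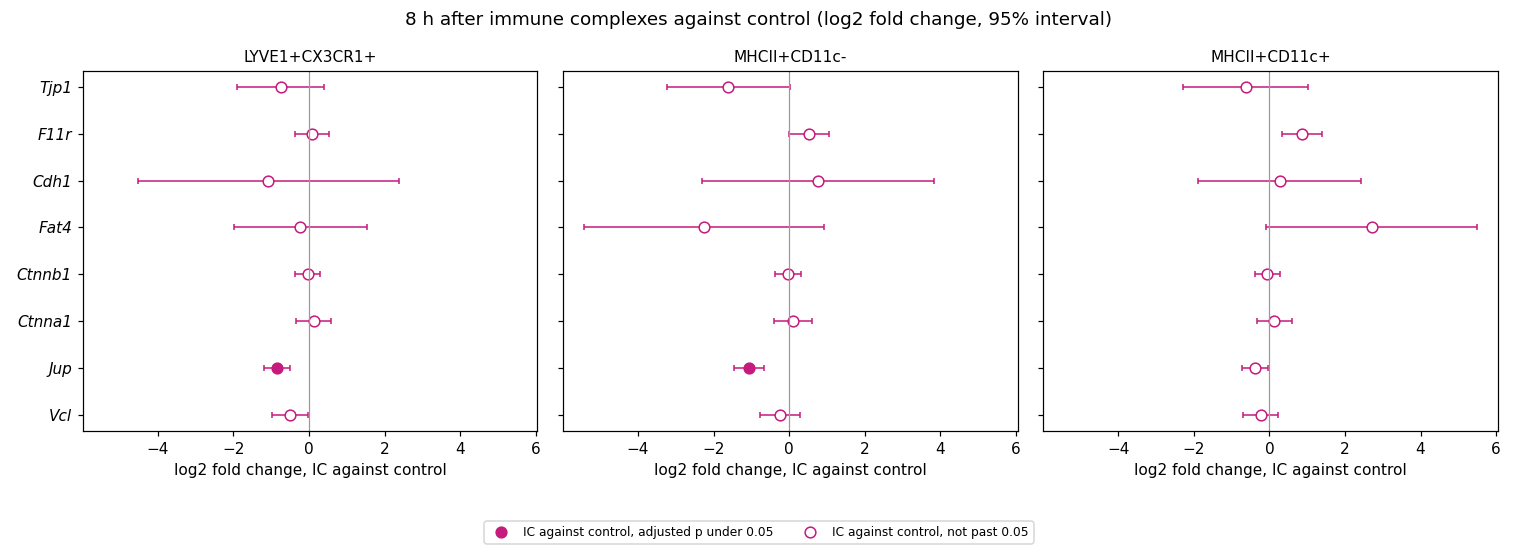
Log2 fold change 8 h after IC against control for 8 junction genes in each subset, with 95% intervals; filled points have an adjusted p under 0.05. Jup was at -0.85 in the LYVE1+CX3CR1+ subset, -1.07 for MHCII+CD11c- and -0.38 for MHCII+CD11c+ macrophages, the last not past the threshold.

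Neutrophil markers differed with subset and treatment. The sum of 12 neutrophil marker genes was 18.9 to 24.8 CPM in LYVE1+CX3CR1+, 921 to 2115 in MHCII+CD11c- and 129 to 829 in MHCII+CD11c+ controls, and 19.2 to 183, 1563 to 4544 and 1120 to 2507 CPM after IC. S100a8, a defining neutrophil gene, was at 0 counts in each LYVE1+CX3CR1+ control library and had 1 to 35 counts after IC in that subset. The sum of 12 macrophage genes was 8287 to 8703 CPM in LYVE1+CX3CR1+ controls and lay between 5712 and 10107 CPM over all libraries. The part of neutrophil RNA in the levels of the members was not tested.

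Of 207 other genes listed for junctions and their partners, 198 were in the count files and 83 passed the filter. Of the 83, 19 are vinculin and talin partners and 21 belong to beta-catenin turnover and the Wnt response. Neither of these lists is particular to cell-cell junctions. For LYVE1+CX3CR1+ against MHCII+CD11c+ controls the vinculin list gave 5 higher and 3 lower calls, and the beta-catenin list 2 higher. Against MHCII+CD11c- controls they gave 2 higher and 1 lower, and 1 higher. Tight junction genes were mostly too low to test (14 of 55 tested), as were desmosome genes (2 of 14) and gap junction genes (2 of 18). Between LYVE1+CX3CR1+ and MHCII+CD11c- controls 13 of 83 were called (15.7%, 8 higher and 5 lower, median log2 0.17), beside 11.4% of all genes tested (456 higher and 751 lower, median log2 -0.02), and 8 were called without LYVE1+CX3CR1+ control 1. Fzd6 and Vangl1, a receptor and a membrane protein of planar cell polarity, were higher in LYVE1+CX3CR1+ macrophages at 9.67 ± 2.48 against 0.407 ± 0.706 CPM (adjusted p = 0.0207) and 20.7 ± 5.72 against 3.13 ± 4.41 CPM (0.0291), and Fermt2 (kindlin-2, an integrin activator) was 3.36-fold higher (adjusted p = 0.00953). Leaving out single libraries kept the call of Fzd6 in 2 of 6 cases (adjusted p up to 0.0984 without MHCII+CD11c- control 3) and that of Vangl1 in 2 of 6 (up to 0.115 without MHCII+CD11c- control 1), and the call of Fermt2 was lost without MHCII+CD11c- control 2 (0.0618). Ctnnd2, Parvg and Ablim1 were lower. Ctnnd2, a delta-catenin, had 0 counts in all LYVE1+CX3CR1+ controls and was at least 15.6-fold lower there (against 3 counts over the group), although 1 MHCII+CD11c- control was also at 0, and the actin-linked Parvg and Ablim1 were 7.87-fold and 7.79-fold lower (Parvg 13.5-fold without LYVE1+CX3CR1+ control 2).

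Between LYVE1+CX3CR1+ and MHCII+CD11c+ controls 25 of 83 were called (30.1%, 15 higher and 10 lower, median log2 0.18), beside 21.8% of all genes (1000 higher and 1303 lower, median log2 -0.02). Amotl1, an angiomotin-like protein of tight junctions, was higher at 107 ± 32.4 against 7.18 ± 7.07 CPM (adjusted p = 2.56e-05), a fold of 14.4 that was 31.6 without MHCII+CD11c+ control 1, and so were Tgfb1i1, a paxillin relative, at 9.59 ± 1.70 against 0.336 ± 0.292 CPM (0.00204) and Fzd6 (0.0131), whose call was kept in 3 of 6 analyses without single libraries (adjusted p up to 0.0767 without MHCII+CD11c+ control 1). Lsr, a receptor of tricellular tight junctions, was 5.56-fold lower (adjusted p = 1.22e-06). Ctnnd2 was at least 19.5-fold lower and Pkp3, a plakophilin of desmosomes with 0 counts in LYVE1+CX3CR1+ controls, at least 9.27-fold lower (its adjusted p of 0.0114 became 0.0523 without LYVE1+CX3CR1+ control 3). Between the MHCII+ subsets 5 of 83 were called (6.02%, beside 3.49% of all genes), with 2 and 3 without MHCII+CD11c- control 3 and MHCII+CD11c+ control 2. Ybx3, Zyx and Flna were higher in MHCII+CD11c+ macrophages (2.61-fold, 2.30-fold and 1.52-fold), and Pdlim7 and Ctnnd1, the p120 catenin that stabilises cadherins, were lower (log2 -1.34 and -0.79). Both lower calls were lost without MHCII+CD11c+ control 2 (adjusted p = 0.0789 and 0.0654) and without MHCII+CD11c- control 3 (0.126 and 0.0880), and that of Pdlim7 also without MHCII+CD11c+ control 3 (0.111) and that of Ctnnd1 without MHCII+CD11c+ control 1 (0.0798). Flna lost its call without MHCII+CD11c- control 2 (0.0704) or control 3 (0.0796). With IC, edgeR called none of the 83 in any subset. In LYVE1+CX3CR1+, MHCII+CD11c- and MHCII+CD11c+ macrophages 3, 13 and 5 had an unadjusted p under 0.05, beside 919, 1544 and 1000 of all 10550 genes. DESeq2 called 4 in MHCII+CD11c- macrophages, beside 281 of all genes, and none in the other subsets. Between subsets after IC, 10, 21 and 4 of 83 were called, beside 9.77%, 19.7% and 2.84% of all genes, for LYVE1+CX3CR1+ against MHCII+CD11c-, LYVE1+CX3CR1+ against MHCII+CD11c+ and MHCII+CD11c+ against MHCII+CD11c- macrophages.

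**Figure D5:**
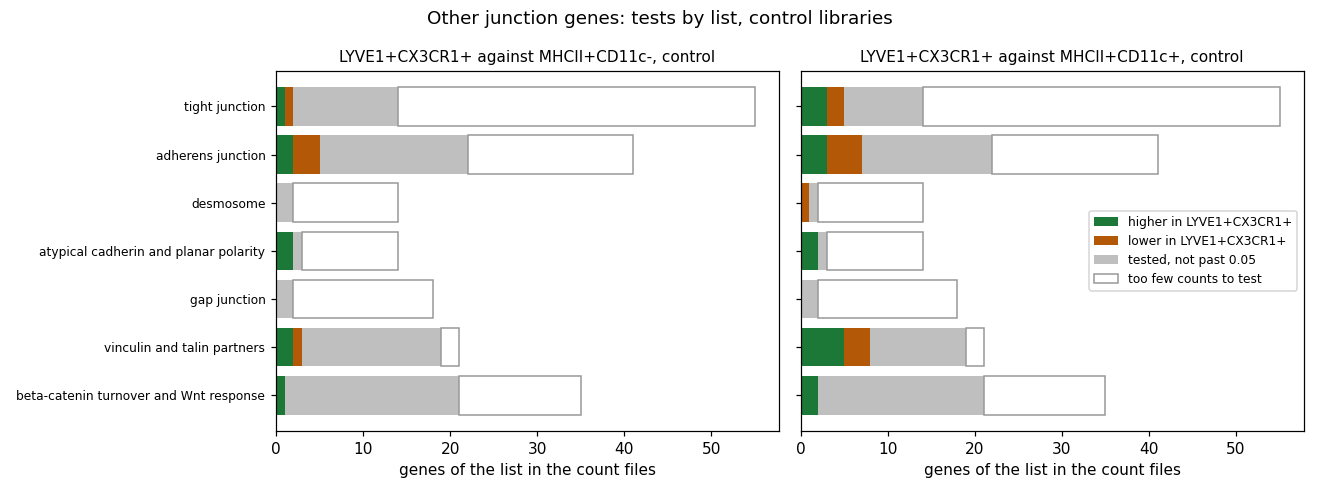
Number of other junction genes per list (horizontal axis) that were higher, lower, not past the threshold or too low to test, for LYVE1+CX3CR1+ against each MHCII+ subset in control libraries. Of 55 tight junction genes in the count files 14 could be tested, and 5 of those were called against MHCII+CD11c+ macrophages.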

How the data were processed

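Bulk RNA-seq counts per gene were analysed for 18 libraries. Per the labels and the study's methods, the authors trimmed reads with Trim Galore, checked them with FastQC, aligned them to mm10 with HISAT2 and deposited raw counts from featureCounts. Tool versions, the annotation and the strand setting are not given in the sources used here. The combined table, identical to the 18 single files, was left out.

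Counts were tested in R 4.3.3 with edgeR 4.0.16 (filterByExpr with a minimum count of 10 and total of 15, TMM, glmQLFit and glmQLFTest over all 6 groups, 10550 genes, Benjamini-Hochberg threshold 0.05). A prior count of 2 was used for log2 CPM only, not in the tests. Cldn5, which failed the filter, was tested by exact permutation in R. Intervals of the count ratios of Fat4 and Cdh1 and the floor of 3 counts cover counting error only. Standard errors of log2 differences and changes were derived from the fitted log2 value and the F statistic of edgeR's quasi-likelihood test. Intervals were built from them with the t distribution and include the spread between libraries. Both are approximate for genes with few counts, such as Fat4 and Cdh1. Lengths and positions came from GENCODE M21, promoters from RefSeq. Alternatives were DESeq2 1.42.0, its size factors, other filters, replicate blocks, 1 surrogate variable (sva 3.50.0), fewer libraries and leaving out each library. The code was tested on simulated data. Named were all members, the 3 largest and 3 smallest called changes of the junction lists, and for each member the 3 genes with the most similar pattern. The members and lists were chosen with earlier results of these data known.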

Additional observations from a re-analysis of the deposited data

How the results depend on the processing

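Over the alternatives run, 50 of the counts of called genes did not stay within 1.5 times their value. Another 252 results did, or, for the permutation test of Cldn5, kept their side of the threshold whatever the size of the difference. Of the values of single members 1447 kept their side of the threshold, 47 lost it and 13 gained it. No called value changed sign. Except for DESeq2, the share of all genes called under these alternatives is not given. A change in a count below can therefore not be set against the change over all genes. For MHCII+CD11c+ against MHCII+CD11c- controls DESeq2 called 581 genes and edgeR 368. Of the 8 members, LYVE1+CX3CR1+ against MHCII+CD11c+ controls gave 3 with no filter (of 9 members) or with at least 10 counts in every library (of 5), and 2 to 3 when single libraries were left out. MHCII+CD11c+ against MHCII+CD11c- controls gave 4 with no filter and 2 with 1 surrogate variable, without the 3 shallow libraries, with only the libraries compared or with DESeq2, and 1 to 2 without single libraries. After IC the same comparison gave 1 without the shallow libraries, 0 with only the libraries compared and 1 to 2 without single libraries. LYVE1+CX3CR1+ against MHCII+CD11c- after IC gave 2 with no filter and 0 without the shallow libraries, and LYVE1+CX3CR1+ against MHCII+CD11c+ gave 3 to 4 without single libraries. The IC response gave 0 to 1 without single libraries in LYVE1+CX3CR1+, 0 with only the libraries compared in MHCII+CD11c- and 1 (F11r, adjusted p = 0.0214) with no filter in MHCII+CD11c+ macrophages.

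Of the other junction genes, LYVE1+CX3CR1+ against MHCII+CD11c- controls gave 4 and against MHCII+CD11c+ controls 10 with at least 10 counts in every library, where fewer genes were tested, and the former 8 to 10 without single libraries. MHCII+CD11c+ against MHCII+CD11c- controls gave 9 with no filter or without the shallow libraries, 10 with 1 surrogate variable and 2 to 7 without single libraries. The IC response gave 1 in LYVE1+CX3CR1+ macrophages with no filter, the replicate block, 1 surrogate variable, without the shallow libraries or with only the libraries compared. In MHCII+CD11c- macrophages it gave 3 with no filter, 1 with 1 surrogate variable, 4 with DESeq2 and 0 to 2 without single libraries. In MHCII+CD11c+ macrophages it gave 1 with 1 surrogate variable and 0 to 1 without single libraries. Unless stated, the cause was not tested. Correlations of deviations between same-numbered libraries of 1 treatment were -0.0455 to 0.132, with a mean of 0.0460. Differently numbered libraries of 1 treatment had a lower mean of -0.0229. These values do not settle whether same-numbered libraries share animals. The labels do not tie them, so the main fit did not take the numbers as pairs. The replicate block left the count of members called at 5 and 6 for LYVE1+CX3CR1+ against MHCII+CD11c+ in controls and after IC and as in the report in each other comparison. Counts of a few reads limit Cdh1, Fat4, Tjp1 and Cldn5, for which differences may not be detectable at this depth.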

Other observations

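Over the 18 libraries, the log2 CPM of F11r was most like that of Itgb5, an integrin subunit (Pearson r = 0.966), Vcan, the proteoglycan versican (0.963), and Clec5a, a myeloid lectin receptor (0.962). For Tjp1 the closest genes were Entpd1, which encodes CD39 (0.859), Pank3 (0.859) and Disc1 (0.854). Ctnnb1 was most like P2ry12, a purinergic receptor of microglia and some macrophages (0.876), Arntl, a clock factor (0.867), and Rap2b (0.856). Jup was most like Asap1 (0.874), Hist1h4b (0.870) and Il6st, the shared receptor chain of the IL-6 family (0.869). Vcl was most like Plekhg1 (0.894), Tcf20 (0.887) and Atp11a (0.886), and Ctnna1 was most like Mrpl33 (0.886), Cdc42ep4 (0.876) and Leo1 (0.874). The sparse members had lower values, with Specc1, Pgpep1 and Txndc15 at 0.836, 0.831 and 0.795 for Fat4 and Plxna1 and Ncor1, after Slco3a1, at 0.732 and 0.730 for Cdh1.

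Among the members themselves, Tjp1 and Ctnnb1 (r = 0.777), Jup and Vcl (0.747), Tjp1 and F11r (0.703) and F11r and Ctnnb1 (0.697) had similar patterns, whereas F11r and Jup (-0.627) and Ctnnb1 and Vcl (-0.584) had opposite ones. These values are descriptions over 18 libraries, which share subset, treatment and depth, and they were not tested.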
